A study of Mus musculus with 18 samples.

Results

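The phagocyte NADPH oxidase is described here through 5 of its subunit genes, Cybb, Cyba, Ncf1, Ncf4 and Rac2, in the livers of mice that lack lysosomal acid lipase. The genes were taken by symbol from the deposited count table, in which they are 5 of 35441 genes, and all 5 had more than 100 reads summed over the mice and were among the 14533 genes tested. Liver polyA RNA was sequenced from 18 male mice, 3 in each of 6 groups. WT mice and Lipa-/- mice received no vector, and treated mice (rAAV8-treated Lipa-/-) were Lipa-/- mice injected with an rAAV8 vector that carries human LIPA behind the hAAT promoter, which is active in hepatocytes. Each kind of mouse was sampled at 12- and 34-weeks after injection, which the labels give as 3 and 8 months. In Lipa-/- mice and treated mice alike, exon 4 of Lipa had been deleted by a Cre recombinase under the CMV promoter, so the deletion was not restricted to the liver, whereas the vector gene is hepatocyte-directed. The study's methods state that nearly all untreated Lipa-/- mice reached an ethical endpoint ahead of the 34-weeks time point, so livers of that group may have been collected earlier than their label says.

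The phagocyte oxidase is the enzyme with which neutrophils and macrophages turn oxygen into superoxide, for killing microbes and for signalling. Cybb encodes the catalytic, haem- and flavin-carrying chain in the membrane, and Cyba encodes the smaller chain that stabilises it. On activation, cytosolic organisers that include the products of Ncf1 and Ncf4, move to the membrane and join the GTPase Rac2, a form of Rac found mainly in blood cells. In the liver the enzyme is known mainly from Kupffer cells and recruited phagocytes, although Cyba also partners other oxidases and is not restricted to phagocytes.

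In GRCm39 the genes lie on 4 chromosomes. Cybb spans chrX:9301491-9354010 and Cyba chr8:123150422-123159706, both on the minus strand. Ncf1 spans chr5:134248907-134258479 on the minus strand, and chromosome 15 holds Ncf4 at chr15:78128982-78146784 on the plus strand and Rac2 at chr15:78443367-78457429 on the minus strand. The canonical transcripts ranged from 793 bases for Cyba to 4759 bases for Cybb. Of the 31-base stretches in the canonical transcript, 4.26% in Rac2, 1.67% in Ncf1 and 0.0423% in Cybb also occurred in transcripts of another gene, against 0% in Cyba and Ncf4.

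The reference promoters are shown because all 5 subunits rose in Lipa-/- livers and are textbook targets of myeloid and interferon-regulated factors. RefSeq windows from 250 bases before to 50 bases after the start (table build GRCm38.p6) were given for 3 of the 5 subunits, namely Cybb, Cyba and Ncf1, while Ncf4 and Rac2 are named only. Each window had 1 exact match in GRCm39, all on the minus strand, at chrX:9335514-9335813 for Cybb, chr8:123159630-123159929 for Cyba and chr5:134258430-134258729 for Ncf1. They are printed 5′ to 3′ along the gene, with capitals marking matches, on either strand, to GAGGAA, a core bound by PU.1, or to the core of the interferon-stimulated response element (ISRE), which is GAAA, any 2 bases and GAAA. No match of one motif overlapped a match of the other.
Cybb: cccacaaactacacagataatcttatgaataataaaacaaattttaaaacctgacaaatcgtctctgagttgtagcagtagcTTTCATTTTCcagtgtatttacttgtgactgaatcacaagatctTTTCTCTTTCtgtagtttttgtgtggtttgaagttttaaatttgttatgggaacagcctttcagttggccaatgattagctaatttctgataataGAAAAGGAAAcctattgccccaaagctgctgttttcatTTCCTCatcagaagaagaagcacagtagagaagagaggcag
Cyba: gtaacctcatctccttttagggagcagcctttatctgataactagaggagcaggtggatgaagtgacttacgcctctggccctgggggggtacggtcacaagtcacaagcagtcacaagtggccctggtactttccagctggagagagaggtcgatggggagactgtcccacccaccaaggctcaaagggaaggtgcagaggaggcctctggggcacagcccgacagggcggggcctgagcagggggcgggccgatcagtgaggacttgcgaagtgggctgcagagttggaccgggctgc
Ncf1: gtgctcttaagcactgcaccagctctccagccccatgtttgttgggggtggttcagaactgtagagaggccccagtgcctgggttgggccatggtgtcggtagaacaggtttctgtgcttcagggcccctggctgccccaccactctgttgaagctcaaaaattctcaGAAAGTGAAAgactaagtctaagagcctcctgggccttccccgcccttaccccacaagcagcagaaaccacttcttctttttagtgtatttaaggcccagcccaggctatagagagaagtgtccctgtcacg
The Cybb window held 4 matches. Of these, 3 were to the ISRE core, from -168 to -159 and from -124 to -115 on the opposite strand and from -29 to -20 on the strand of the gene, and the GAGGAA match on the opposite strand ran from 10 to 15, counted from 1 at the start. The Ncf1 window held a single ISRE core match, from -82 to -73 on the strand of the gene, and the Cyba window held neither motif. Among all 32851 promoters of this length in the table, 28.3% held GAGGAA and 3.44% held the ISRE core. These matches describe letters in the reference only, and a GAGGAA match is common.

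Between 17527848 and 25833134 reads per mouse were assigned to genes, and replicate libraries differed by more than sampling noise. Relative to WT, Lipa reads in Lipa-/- livers were 9.55-fold lower at 12-weeks and 16.1-fold lower at 34-weeks (edgeR adjusted p = 3.62e-08 and 1.23e-08), and human LIPA had a mean CPM, the reads scaled to library size and TMM factor, of 1705 in the 12-weeks and 1528 in the 34-weeks treated group against at most 0.322 in the other groups. The 3 treated mice at 12-weeks stood apart from the other libraries. Their TMM factors, which adjust a library for its composition, were 0.587, 0.759 and 0.627 against 0.806 to 1.69 in the other mice, and relative to WT mice at 12-weeks the median log2 fold change was 0.81 in the shortest of 5 equal classes of gene length and -0.38 in the longest. By GC content that median was 0.40 in the lowest of 5 classes and -0.35 in the highest. Cyba and Ncf4 belong to the shortest class and Cybb to the longest. In GC content Cyba is in the highest class and Cybb in the lowest. Lipa-/- mice also differed from WT mice and had the highest TMM factors, from 1.165 to 1.69. Their median log2 fold change over WT ran from -0.21 in the lowest to 0.29 in the highest GC class at 12-weeks. At 34-weeks it ran from -0.31 in the shortest to 0.20 in the longest length class. For the subunits, log2 values of treated mice at 12-weeks and of Lipa-/- against WT mice are therefore also given from another fit. That fit leaves out each library's trend with gene length and GC content. Values of partner genes, other oxidases, transcription factors and cell markers lack that adjustment, apart from the changes flagged at the end. Shares and ratios in TPM carry no such adjustment. The part of the length and GC trend in the results was otherwise not tested. No study code in the labels is shared by the time points, so time and study code cannot be told apart. At 12-weeks Lipa-/- mouse 5 carries another study code than the other 8 mice, and without it all 5 subunits were still called higher than WT, with log2 values of 3.88 for Rac2 to 5.41 for Cyba.

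All 5 subunit transcripts rose in Lipa-/- livers at both time points. At 12-weeks the fold differences ran from 14.3 for Rac2 to 38.2 for Cyba, and at 34-weeks from 7.42 for Rac2 to 16.9 for Cyba. A gene was called when its absolute log2 fold change was over 1 and its adjusted p under 0.05 in edgeR's quasi-likelihood test over all genes. By this rule 5 of 5 subunits were called higher at 12-weeks, where 20.2% of all genes tested were, and 5 of 5 at 34-weeks, where 20.5% were. The 3 Lipa-/- mice lay above the 3 WT mice for 5 of 5 subunits at each time point, while the groups were separate for 52.7% of all genes at 12-weeks and 60.3% at 34-weeks. The median log2 fold change of the subunits was 4.97 at 12-weeks, beside 0.02 over all genes. With the length and GC trend removed, the log2 values ran from 3.34 for Rac2 to 4.85 for Cybb at 12-weeks. At 34-weeks they ran from 2.53 for Rac2 to 3.87 for Ncf4. Each was smaller than without this removal, and all 5 stayed called at both time points.

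All 5 subunits were lower in treated than in Lipa-/- livers. They were called lower in 5 of 5 cases at 12-weeks and in 5 of 5 at 34-weeks, against 25.3% and 18.6% of all genes tested, and the groups were separate for 5 of 5 at each, against 59.3% and 55.9% of all genes. With the length and GC trend removed, the log2 values at 12-weeks were -3.63 for Cybb, -1.57 for Cyba, -1.66 for Ncf1, -2.80 for Ncf4 and -2.94 for Rac2. Without this removal they were -3.71, -1.86, -2.45, -2.92 and -3.64. Compared with WT livers, 4 of 5 subunits were still called higher in treated mice at 12-weeks, Rac2 being the exception, where 13.6% of all genes were called higher, and the groups were separate for these 4, against 52.5% of all genes. Without WT mouse 3 the subunits called were 2 and the genes called in either direction 1633 in place of 3713, and without treated mouse 10 those genes were 1794. At 34-weeks 0 of 5 were called by edgeR in treated against WT mice, with 0.22% of all genes called in either direction, and the groups overlapped for all 5, where 8.89% of all genes were separate. Of the 5, Cybb and Ncf4 had an unadjusted p under 0.05 at 34-weeks (0.0297 and 0.00941), and DESeq2 called 1, Rac2 (log2 fold change 1.84, adjusted p = 0.0379). The 6 comparisons within a time point share groups, so their values are not independent of each other. In bulk liver RNA, fewer cells of a type and less RNA per cell cannot be told apart.

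**Figure D1:**
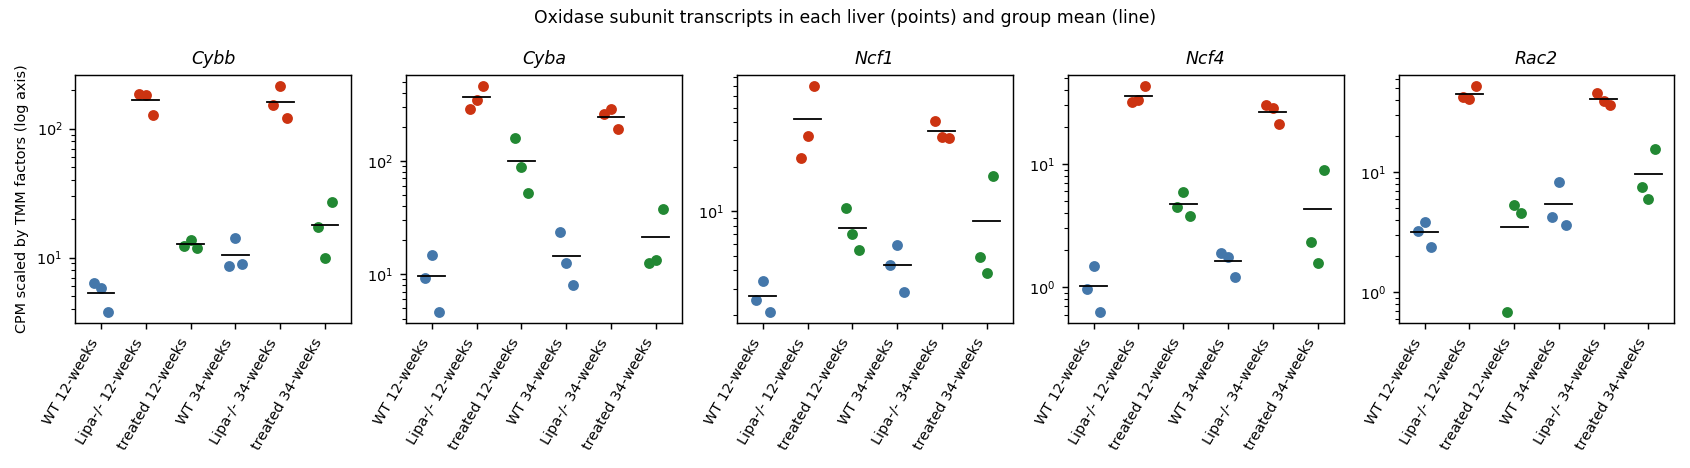
CPM (reads scaled to library size and TMM factor, log axis with its own range in each panel) of the 5 subunits in each of 18 livers, with points for mice and lines for group means of 3 mice. For all 5 genes the Lipa-/- mice lie above the WT and treated mice of the same time point, and treated mice at 12-weeks lie closest to them for Cyba.

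Cybb, the catalytic chain, was at 6.32, 5.79 and 3.77 CPM in WT mice at 12-weeks (mice 1, 2 and 3), at 187, 182 and 128 CPM in Lipa-/- mice (mice 5, 8 and 9) and at 12.3, 13.6 and 12.0 CPM in treated mice (mice 10, 11 and 12). The 3 groups did not overlap, and treated mice lay within a narrow band just above WT. At 34-weeks Cybb was at 8.55, 14.1 and 8.99 CPM in WT mice (mice 1, 2 and 3), at 151, 215 and 121 CPM in Lipa-/- mice (mice 4, 5 and 6) and at 17.2, 9.89 and 26.9 CPM in treated mice (mice 9, 11 and 12). Lipa-/- mice were again far above the others, while treated and WT mice overlapped. In edgeR the log2 fold change of Lipa-/- over WT was 4.97 (SE 0.379, adjusted p = 8.11e-08) at 12-weeks and 3.94 (SE 0.359, adjusted p = 3.64e-07) at 34-weeks. Treated mice were 13.1-fold below Lipa-/- mice at 12-weeks (adjusted p = 1.57e-06) and 9.01-fold below at 34-weeks (adjusted p = 3.06e-06). Over WT, treated mice had 2.39-fold more Cybb at 12-weeks (log2 1.25, SE 0.336, adjusted p = 0.0112), a call that was lost without WT mouse 3 (log2 1.06, adjusted p = 0.0626), with total counts (0.87, 0.0723), at an adjusted p of 0.01 and in limma on log2(TPM + 1), where the value was 0.34 (adjusted p = 0.454). The value was 1.23 (adjusted p = 0.014) with the length and GC trend removed.

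Cyba, the stabilising membrane chain, was in WT mice at 12-weeks at 9.32, 14.7 and 4.61 CPM, in Lipa-/- mice at 287, 348 and 461 CPM, and in treated mice at 161, 88.7 and 51.8 CPM. Each group was separate from the others, with treated mice between the WT and Lipa-/- mice. At 34-weeks it was at 23.4, 12.4 and 7.94 CPM in WT mice, at 262, 286 and 190 CPM in Lipa-/- mice and at 12.6, 13.4 and 37.3 CPM in treated mice. Treated mice now overlapped with WT mice, and mouse 12 was the highest of them. The log2 fold change of Lipa-/- over WT was 5.26 (SE 0.601, edgeR adjusted p = 4.23e-06) at 12-weeks and 4.08 (SE 0.568, adjusted p = 2.14e-05) at 34-weeks. In treated over WT mice at 12-weeks it was 3.39 (SE 0.553, edgeR adjusted p = 0.00185), 3.08 (adjusted p = 0.000894) with the length and GC trend removed and 2.80 (adjusted p = 0.0083) without mouse 10. At 34-weeks the difference from WT was 0.54 (SE 0.508, adjusted p = 0.965), and it was -0.16 without mouse 12.

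Treated mice were 3.64-fold below Lipa-/- mice in Cyba at 12-weeks (edgeR adjusted p = 0.0064) and 11.6-fold below at 34-weeks (adjusted p = 8.55e-05). For Cyba the gap between treated and WT mice was not the same at 12- and 34-weeks, with a change of -2.85 on the log2 scale (SE 0.73, edgeR adjusted p = 0.0255), where 18.4% of all genes tested were called for this change, a number that ranged from 1 gene without treated mouse 9 at 34-weeks to 3454 genes without treated mouse 12 and was 6 genes with only the compared groups fitted, against 2675 in all. Of the 5 subunits Cyba was the only one called in this test. With the length and GC trend removed the change was -2.52 (adjusted p = 0.0255), but the call was lost in 5 of the fits that left out a mouse, namely treated mouse 10 (-2.27, adjusted p = 0.0685), WT mouse 1 (-2.84, 0.052) or WT mouse 3 (-2.52, 0.0752) at 12-weeks and WT mouse 1 (-2.34, 0.0722) or treated mouse 9 (-2.59, 0.0737) at 34-weeks, and with only the compared groups fitted (-2.74, 0.0637). Without treated mouse 12 at 34-weeks, Ncf4 was called as well (-1.83, adjusted p = 0.0189).

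Ncf1, the cytosolic organiser that carries the assembly signal, was at 2.52, 3.40 and 2.09 CPM in WT mice at 12-weeks, at 23.0, 32.0 and 70 CPM in Lipa-/- mice and at 10.5, 7.01 and 5.52 CPM in treated mice. The groups did not overlap, and Lipa-/- mouse 9 was more than the sum of the other two Lipa-/- mice. At 34-weeks Ncf1 was at 4.37, 5.91 and 2.84 CPM in WT mice, at 40.5, 31.8 and 31.3 CPM in Lipa-/- mice and at 4.92, 3.82 and 17.2 CPM in treated mice, in which mouse 12 was again high and the others lay among the WT mice. Ncf1 rose 15.5-fold over WT in Lipa-/- mice at 12-weeks (log2 3.96, SE 0.553, edgeR adjusted p = 3.15e-05; 3.36 without mouse 9) and 7.89-fold higher at 34-weeks (adjusted p = 0.000193). Treated mice had 5.45-fold less Ncf1 than Lipa-/- mice at 12-weeks (adjusted p = 0.000959) and 3.97-fold less at 34-weeks (adjusted p = 0.00418). Over WT mice the log2 fold change was 1.51 (SE 0.526, adjusted p = 0.0341) at 12-weeks and 0.99 (SE 0.502, adjusted p = 0.896) at 34-weeks. With the length and GC trend removed the value at 12-weeks was 1.81 (edgeR adjusted p = 0.0216). The edgeR call at 12-weeks was lost without treated mouse 10 (1.15, adjusted p = 0.156) or 11 (1.57, 0.053), without WT mouse 1 (1.47, 0.0864) or 3 (1.36, 0.118), with total counts (1.11, 0.111) and at an adjusted p of 0.01, and limma on log2(TPM + 1) gave 0.44 (adjusted p = 0.479). The value at 34-weeks was 0.00 without mouse 12.

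Ncf4, whose product binds a membrane lipid of phagosomes, was at 0.965, 1.48 and 0.628 CPM in WT mice at 12-weeks, which were 18, 31 and 12 reads. Lipa-/- mice were at 31.6, 33.1 and 43.1 CPM and treated mice at 4.47, 5.92 and 3.76 CPM. None of these groups overlapped. At 34-weeks WT mice were at 1.89, 1.77 and 1.21 CPM, Lipa-/- mice at 30.0, 28.4 and 21.1 CPM and treated mice at 2.32, 1.58 and 8.95 CPM, with treated and WT mice overlapping. The rise in Lipa-/- mice was 34.6-fold at 12-weeks (log2 5.11, SE 0.543, edgeR adjusted p = 1.97e-06) and 16.4-fold at 34-weeks (log2 4.03, SE 0.51, adjusted p = 8.2e-06). In treated mice Ncf4 was 7.56-fold below Lipa-/- mice at 12-weeks (adjusted p = 0.000139) and 6.12-fold below at 34-weeks (adjusted p = 0.000294). It was 4.58-fold above WT at 12-weeks (log2 2.20, SE 0.516, adjusted p = 0.007) and 1.85 on the log2 scale with the length and GC trend removed (adjusted p = 0.0075). At 34-weeks the log2 value was 1.42 (SE 0.484, adjusted p = 0.569), or 0.28 without mouse 12.

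Rac2, the GTPase of the complex, was at 3.22, 3.88 and 2.36 CPM in WT mice at 12-weeks, at 42.4, 40.7 and 52.4 CPM in Lipa-/- mice and at 0.680, 5.33 and 4.52 CPM in treated mice. The low value in treated mouse 10 rests on 7 reads, and the 2 other treated mice lay above the 3 WT mice. At 34-weeks Rac2 was at 4.25, 8.36 and 3.66 CPM in WT mice, at 45.5, 39.4 and 36.1 CPM in Lipa-/- mice and at 7.52, 5.96 and 15.5 CPM in treated mice, with treated and WT mice overlapping. Lipa-/- mice exceeded WT mice 14.3-fold at 12-weeks (log2 3.84, SE 0.517, edgeR adjusted p = 2.19e-05) and 7.42-fold at 34-weeks (log2 2.89, SE 0.491, adjusted p = 0.00014). Treated mice were 12.5-fold below Lipa-/- mice at 12-weeks (adjusted p = 4e-05) and 4.17-fold below at 34-weeks (adjusted p = 0.00218). The difference of treated from WT mice at 12-weeks was 0.19 on the log2 scale (SE 0.499, adjusted p = 0.78), 0.39 with the length and GC trend removed (adjusted p = 0.523) and 0.57 without mouse 10 (adjusted p = 0.309). It was 0.83 (SE 0.469, adjusted p = 0.926) at 34-weeks, against 1.83 in edgeR with gene length offsets (adjusted p = 0.325) and 1.84 in DESeq2 with such offsets, which alone called it. The deposited effective length of Rac2, an average over its transcripts, varied from 1036 bases in treated mouse 11 at 34-weeks to 2821 bases in WT mouse 1 at 34-weeks, so its values per length and per read differ more between mice than those of the other subunits. That of Ncf4 varied as well, from 551 bases in treated mouse 11 at 12-weeks to 1247 bases in WT mouse 1 at 34-weeks. The Ncf4 log2 value of treated over WT mice at 12-weeks ranged from 1.5 to 3.11 over the alternative fits.

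**Figure D2:**
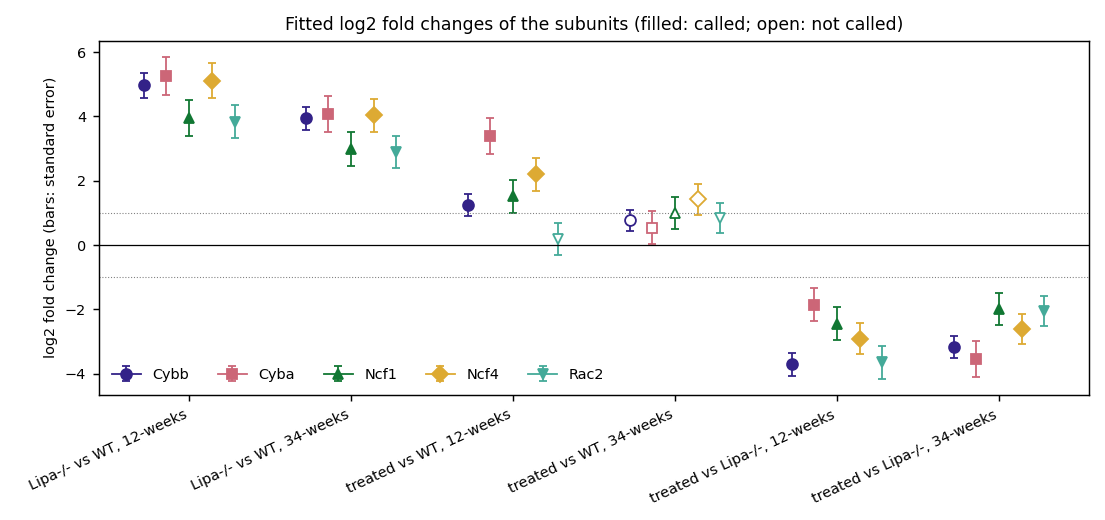
Fitted log2 fold changes (edgeR) of the 5 subunits in the 6 comparisons within a time point, with bars for the standard error, filled symbols for called values, open symbols for values not called, and dotted lines at a log2 fold change of 1 and -1. All symbols are filled for Lipa-/- against WT and for treated against Lipa-/-, all are open for treated against WT at 34-weeks, and Rac2 alone is open at 12-weeks.

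Between the time points, edgeR called 0 of 5 subunits in WT mice (0.323% of all genes) and 0 of 5 in Lipa-/- mice (0.495%), and DESeq2 also called 0 of 5 in each. In WT mice the edgeR log2 values of 34- over 12-weeks lay between 0.60 for Cyba and 0.99 for Cybb, of which Cybb had an unadjusted p of 0.00842 and an adjusted p of 0.326. The WT groups were separate for Cybb alone, where 13% of all genes were. In Lipa-/- mice the log2 values lay between -0.57 for Cyba and -0.03 for Cybb, with no unadjusted p under 0.05. The rise over WT differed between the time points by -1.18 for Cyba to -0.95 for Rac2, with 0 of 5 called by edgeR or DESeq2 where edgeR called 0.0619% of all genes, and only Cybb had an unadjusted p under 0.05 (0.0396). In treated mice, by contrast, 32% of all genes were called between the time points, 17.5% higher and 14.5% lower at 34-weeks, and 2 of 5 subunits were called in opposite directions. Cyba fell by 2.25 on the log2 scale (SE 0.525, edgeR adjusted p = 0.00337), and by 2.02 with the length and GC trend removed (adjusted p = 0.00332). Rac2 rose by 1.42 (SE 0.488, adjusted p = 0.0261), a call lost with the trend removed (0.99, adjusted p = 0.0821), without treated mouse 10 at 12-weeks (1.00, adjusted p = 0.0656) and without treated mouse 12 at 34-weeks (0.94, adjusted p = 0.128). The mouse number is shared by some mice of the time points but belongs to separate animals.

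The order of the 6 groups by mean CPM differed among the subunits only below the Lipa-/- mice. For all 5 genes Lipa-/- mice at 12-weeks came first (Cyba 365 ± 88.3, Cybb 166 ± 32.7, Rac2 45.2 ± 6.35, Ncf1 41.7 ± 24.9 and Ncf4 35.9 ± 6.26 CPM, SD, n = 3) and Lipa-/- mice at 34-weeks second. These 2 groups overlapped for Cybb, Ncf1 and Rac2 but not for Cyba and Ncf4, as for 27.4% of all genes, and WT mice at 12-weeks came last for each gene. For Cyba the third place fell to treated mice at 12-weeks, with 100.5 ± 55.4 CPM, which were separate from the group above and the group below. For Cybb, Ncf1 and Rac2 the third place fell to treated mice at 34-weeks, with 17.99 ± 8.504, 8.65 ± 7.43 and 9.64 ± 5.09 CPM, and these overlapped with the next group in the order.

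Measured per length, as TPM, the 5 subunits were present in unequal amounts. Cyba made up most of their summed TPM in all 18 mice, with a mean share of 79.3% ± 6.56 in WT, 85.8% ± 1.72 in Lipa-/- and 92.3% ± 3.17 in treated mice at 12-weeks (SD, n = 3), and of 75.4% ± 10.1, 81.4% ± 1.45 and 67.0% ± 3.27 at 34-weeks. Treated mice thus had the highest mean Cyba share at 12-weeks and the lowest at 34-weeks. In the latter mice Rac2 held 13.3% ± 1.94 of the summed TPM, against 0.821% ± 0.692 in treated mice at 12-weeks and 4.05% ± 1.503 in Lipa-/- mice at 34-weeks. That Rac2 share goes with deposited Rac2 lengths of 1633, 1036 and 1147 bases in treated mice at 34-weeks, beside 2796, 2784 and 2806 bases in treated mice at 12-weeks. The summed TPM ranged from 12.0 to 41.6 in WT mice, from 686 to 1306 in Lipa-/- mice and from 36.5 to 151 in treated mice.

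**Figure D3:**
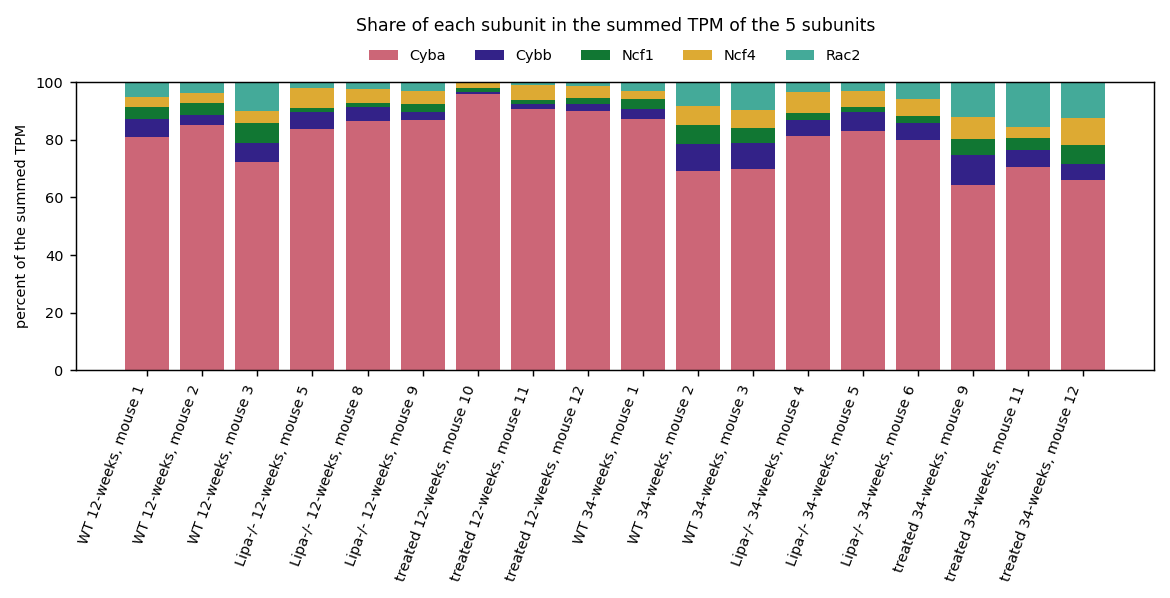
Stacked bars of the percent of the summed TPM of the 5 subunits that each holds, for 18 livers. Cyba fills most of every bar, with shares from 64.3% to 95.9%, and Rac2 is widest in treated mice at 34-weeks.

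Since both chains of the membrane flavocytochrome are needed for a stable protein, Cybb was set against Cyba within each liver. As the log2 ratio of TPM with 0.1 added, Cybb to Cyba was -3.61, -4.43 and -3.26 in WT mice at 12-weeks, -3.81, -4.16 and -4.99 in Lipa-/- mice and -6.77, -5.84 and -5.16 in treated mice. Treated mice lay below all others, with 109, 57.2 and 35.8 times more Cyba than Cybb per length. At 34-weeks the ratio was -4.47, -2.86 and -2.91 in WT mice, -3.93, -3.62 and -3.80 in Lipa-/- mice and -2.59, -3.52 and -3.58 in treated mice, and the groups overlapped. Over both time points the ratio of treated minus WT mice was -0.99 (12-weeks -2.16, 34-weeks 0.19) with p = 0.11 in an exact permutation test within time points (two-sided, n = 6 against 6, smallest possible p = 0.005) and 0.165 after adjustment over 6 tests. Lipa-/- minus WT mice gave -0.46 (12-weeks -0.56, 34-weeks -0.37; exact permutation p = 0.2, adjusted 0.24), and treated minus Lipa-/- mice gave -0.52 (12-weeks -1.60, 34-weeks 0.56; exact permutation p = 0.31, adjusted 0.31). With 1 added to each TPM in place of 0.1, Lipa-/- minus WT mice became -1.05 with an adjusted exact permutation p of 0.03. Without treated mouse 10 at 12-weeks, treated minus WT mice was -0.55 and treated minus Lipa-/- mice was -0.08.

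Rac1, the ubiquitous relative of Rac2, can also serve the oxidase, and Rac1 itself was called in 0 of the 6 comparisons within a time point. The log2 TPM ratio of Rac2 to Rac1 was -5.56, -5.64 and -5.60 in WT mice at 12-weeks, -1.66, -2.10 and -1.59 in Lipa-/- mice and -6.56, -4.71 and -5.17 in treated mice. At 34-weeks it was -5.29, -4.43 and -4.84 in WT mice, -1.80, -1.72 and -1.59 in Lipa-/- mice and -3.71, -3.63 and -2.20 in treated mice. Rac1 exceeded Rac2 in every liver, by 3.00- to 4.28-fold in Lipa-/- mice and by 21.6- to 49.7-fold in WT mice. The ratio was higher in Lipa-/- than in WT mice by 3.48 (12-weeks 3.82, 34-weeks 3.15; exact permutation p = 0.005, the smallest possible, adjusted 0.015) and treated minus Lipa-/- mice gave -2.59 (12-weeks -3.70, 34-weeks -1.48; exact permutation p = 0.005, adjusted 0.015). Treated minus WT mice gave 0.90 (12-weeks 0.12, 34-weeks 1.68; exact permutation p = 0.08, adjusted 0.16), which became 1.34 without treated mouse 10 at 12-weeks and 0.98 with 1 added to each TPM (adjusted p = 0.01 for each in the exact permutation test), but 0.35 in estimated counts without gene length (adjusted exact permutation p = 0.535).

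**Figure D4:**
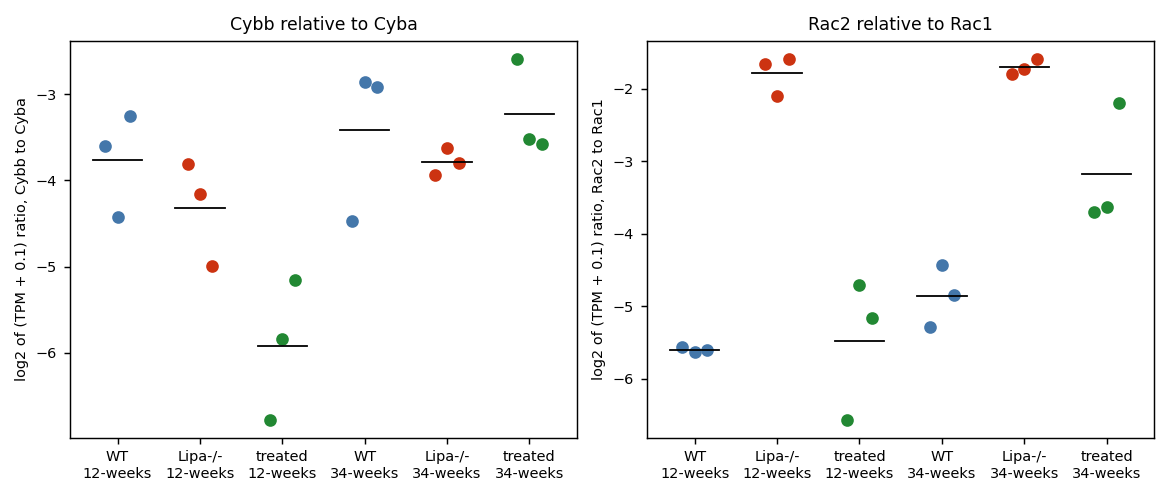
The log2 ratio of TPM (0.1 added to each) of Cybb to Cyba and of Rac2 to Rac1 in each of 18 livers, with points for mice and lines for group means of 3 mice. Treated mice at 12-weeks are lowest for Cybb to Cyba, and Lipa-/- mice are highest for Rac2 to Rac1 at both time points.

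The partners of the subunits were followed in a list of 15 genes for assembly, activation and regulation, all tested by edgeR. Of these, 11 were called higher in Lipa-/- mice, relative to WT, at 12-weeks and 11 at 34-weeks, with 0 called lower. Among all genes tested 20.2% and 20.5% were called higher. The median log2 fold changes of the partners were 3.21 and 2.52 beside 0.02 and -0.03 over all genes. The largest rises at 12-weeks were in Hvcn1, the proton channel that balances the charge moved by the oxidase (log2 5.38, SE 0.46, adjusted p = 2.51e-07), in Pik3cg, a lipid kinase of leukocytes (4.66, SE 0.497, adjusted p = 2.09e-06), and in the Rac exchange factors Dock2 (4.65, SE 0.343, adjusted p = 6e-08) and Vav1 (4.50, SE 0.444, adjusted p = 9.5e-07). At 34-weeks Hvcn1 (4.77), Vav1 (3.48), the kinase Pak1 (3.41) and Dock2 (3.37) led. The 4 partners not called at either time point were the broadly expressed Rac1, Rap1a, Pik3c3 and Cybc1, a chaperone of the membrane chains, for which Cybc1 had log2 values of 0.76 and 0.88. In treated mice 11 of 15 were called lower than in Lipa-/- mice at 12-weeks and 11 at 34-weeks, against 25.3% and 18.6% of all genes.

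Compared with WT mice, treated mice had 5 of the 15 partners called higher and 1 called lower at 12-weeks, where 13.6% and 12% of all genes were. At 34-weeks 0 were called by edgeR or DESeq2, where edgeR called 0.22% of all genes. Hvcn1 (0.00878) and Dock2 (0.0424) nevertheless had an unadjusted p under 0.05 at 34-weeks. Prkcb, a kinase that phosphorylates Ncf1, was at 2.53, 2.07 and 1.46 CPM in treated mice and at 0.590, 0.526 and 0.576 CPM in WT mice at 12-weeks, with no overlap (log2 1.82, SE 0.417, edgeR adjusted p = 0.00617). The partner called lower was Arhgdia, an inhibitor that holds Rac proteins in the cytosol, at 5.44, 24.5 and 28.9 CPM in treated mice and 59.7, 69.5 and 62.0 CPM in WT mice (log2 -1.70, SE 0.388, adjusted p = 0.00621), where 12% of all genes were called lower. Arhgdia was called higher in Lipa-/- than in WT mice at both time points (log2 1.64 and 2.27).

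Oxidases of other cells did not move as a block with the subunits. Of 9 genes in this list, 6 had too few reads to be tested (Nox1, Nox3, Duox1, Duox2, Duoxa1 and Duoxa2), and Nox3 had no read in any mouse. Nox4, an oxidase of hepatocytes, stellate cells and other non-phagocytes that also uses Cyba, was lower in Lipa-/- mice. Its mean level at 12-weeks was 39.7 ± 4.96 CPM in WT, 11.4 ± 2.21 in Lipa-/- and 38.7 ± 8.79 in treated mice (SD, n = 3), and at 34-weeks it was 33.2 ± 6.70, 7.45 ± 1.80 and 32.5 ± 8.01 CPM. The log2 fold change of Lipa-/- over WT was -1.80 (SE 0.249, edgeR adjusted p = 3.01e-05) at 12-weeks and -2.15 (SE 0.253, adjusted p = 4.08e-06) at 34-weeks, and treated against WT mice gave -0.04 and -0.03, with neither called. Noxa1, the activator subunit of a non-phagocyte oxidase, was almost absent in WT mice (0 to 4 reads per mouse) and had 77 to 157 reads per mouse in Lipa-/- mice, where it was called higher at both time points. Noxo1, the organiser related to Ncf1, was called higher in Lipa-/- mice with log2 values of 1.63 and 1.20.

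Among 4 transcription factors known to control the subunit genes, Spi1, which encodes PU.1, and Irf8 were called higher in Lipa-/- than in WT mice at both time points (20.2% and 20.5% of all genes). Spi1 had a mean of 3.81 ± 1.70 CPM in WT, 101.3 ± 6.31 in Lipa-/- and 10.3 ± 3.01 in treated mice at 12-weeks, and of 7.61 ± 3.39, 79.9 ± 20.5 and 11.8 ± 8.76 CPM at 34-weeks (SD, n = 3). Its log2 fold change of Lipa-/- over WT was 4.73 (SE 0.506, edgeR adjusted p = 2.15e-06) at 12-weeks and 3.39 (SE 0.472, adjusted p = 2.14e-05) at 34-weeks, beside 3.03 and 2.59 for Irf8. In treated mice at 12-weeks Spi1 (1.44), Irf8 (1.08) and Irf1 (1.18) were called higher than in WT mice, where 13.6% of all genes were. At 34-weeks 0 of 4 were by edgeR or DESeq2, with an unadjusted p under 0.05 for Irf8 (0.043). Cebpe, a factor of granulocyte maturation, was called in Lipa-/- mice at 34-weeks only, and lower (log2 -1.52, SE 0.25, adjusted p = 0.000104).

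**Figure D5:**
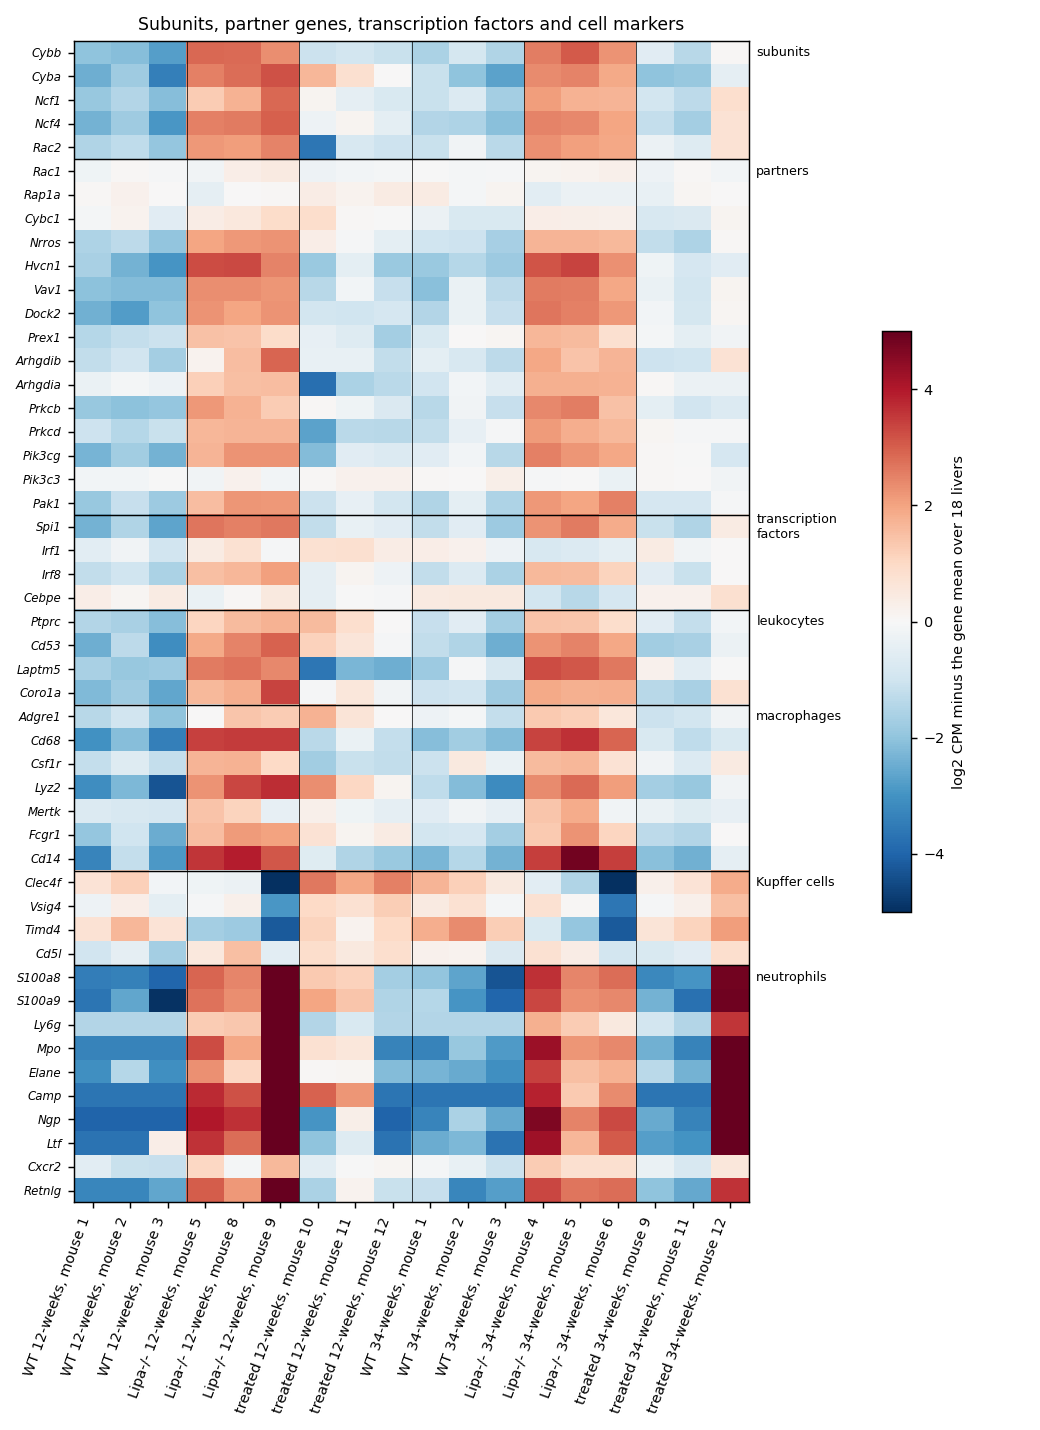
Centred log2 CPM (each gene minus its mean over 18 livers, colours capped at 5 and -5) of the 5 subunits, 15 partner genes, 4 transcription factors and markers of leukocytes, macrophages, Kupffer cells and neutrophils, with 1 column per mouse. The subunits, most partners and Spi1 are red in the 6 Lipa-/- columns, and most neutrophil rows are darkest in Lipa-/- mouse 9 at 12-weeks and treated mouse 12 at 34-weeks.

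The cells that hold the oxidase were followed by marker lists chosen with results of these data known. The 4 leukocyte markers were 4 of 4 called higher in Lipa-/- than in WT mice at each time point by edgeR, and the 7 macrophage markers 7 of 7. Among all genes 20.2% were called higher at 12-weeks and 20.5% at 34-weeks. In treated mice 3 of 4 leukocyte and 4 of 7 macrophage markers were called higher than WT at 12-weeks, where 13.6% of all genes were. The leukocyte marker not called, Laptm5, lay below WT there without overlap, at 1.94, 5.00 and 4.52 CPM against 7.88, 6.51 and 6.96 CPM. The macrophage marker Csf1r also had a lower mean there than in WT mice (15.3 against 19.6 CPM). At 34-weeks 0 of either list were called, against 0.22% of all genes, and Cd68 alone had an unadjusted p under 0.05 (0.00362). The summed leukocyte level was 17.2 to 27.2 CPM in WT, 332 to 579 in Lipa-/- and 62.9 to 125 in treated mice at 12-weeks, and 29.8 to 55.0, 344 to 470 and 39.1 to 96.3 CPM at 34-weeks. Expressed per summed leukocyte marker CPM, the ranges of WT and Lipa-/- mice at 12-weeks overlapped for Cybb and Ncf1, were lower in Lipa-/- mice for Rac2 and higher for Cyba and Ncf4. Cybb was at 0.213 to 0.274 in WT and 0.221 to 0.563 in Lipa-/- mice at 12-weeks and at 0.245 to 0.302 and 0.322 to 0.476 at 34-weeks, Rac2 was at 0.137 to 0.143 and 0.0905 to 0.128 at 12-weeks, Ncf1 was at 0.109 to 0.125 and 0.0694 to 0.121, and Ncf4 was at 0.0366 to 0.0546 and 0.0744 to 0.0952. Cyba was at 0.268 to 0.540 in WT, 0.796 to 0.864 in Lipa-/- and 0.824 to 1.29 in treated mice at 12-weeks. The corresponding Cyba ranges at 34-weeks were 0.226 to 0.670, 0.552 to 0.632 and 0.224 to 0.387. Per summed macrophage marker CPM the picture at 12-weeks was another. Cyba overlapped between WT (0.0791 to 0.103), Lipa-/- (0.0684 to 0.107) and treated mice (0.0706 to 0.0940). Cybb and Ncf4 overlapped between WT and Lipa-/- mice, with Ncf4 at 0.00983 to 0.0108 in WT and 0.00649 to 0.0118 in Lipa-/- mice. Ncf1 and Rac2 were lower in Lipa-/- mice without overlap. Ncf1 was at 0.0225 to 0.036 in WT and 0.00629 to 0.0114 in Lipa-/- mice, and Rac2 at 0.0257 to 0.0405 and 0.00799 to 0.0158. In treated mice Cybb, Ncf1, Ncf4 and Rac2 were all lower than in WT mice without overlap. In the macrophage sum Lyz2 alone held 5562 of 6151 CPM in Lipa-/- mouse 9 and 2148 of 2278 CPM in treated mouse 10 at 12-weeks. Its part was smaller in WT mice, with 91.1 of 151 CPM in mouse 2 and 21.6 of 58.2 CPM in mouse 3. The ratios to marker sums depend on the marker list and carry no test, and the part of cell numbers in the results was not tested.

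Macrophage markers summed to 58.2 to 151 CPM in WT, 2675 to 6151 in Lipa-/- and 552 to 2278 in treated mice at 12-weeks, and to 112 to 237, 2288 to 3982 and 177 to 499 CPM at 34-weeks. Of the 4 markers of resident Kupffer cells, 1 was called higher and 1 lower in Lipa-/- mice at 12-weeks, and 0 higher and 2 lower at 34-weeks. Among all genes 20.2% were called higher and 9.06% lower at 12-weeks, and 20.5% and 15.7% at 34-weeks. The summed level of the 4 markers was 64.8 to 310 CPM in Lipa-/- mice at 12-weeks against 85.2 to 202 in WT mice. That sum joins markers that moved in opposite directions. Mean Cd5l was higher in Lipa-/- than in WT mice (147.1 against 45.4 CPM). Lower means were seen for Clec4f (27.84 against 79.21 CPM), Vsig4 (11.26 against 13.97 CPM) and Timd4 (0.2714 against 3.453 CPM). Treated mice at 12-weeks had a higher sum than Lipa-/- or WT mice, 337 to 502 CPM with no overlap. Of the 4 markers, 1 was called higher than WT (13.6% of all genes). In these mice Clec4f, the largest part of the mean level, had a mean of 259.7 ± 63.3 CPM against 79.2 ± 34.2 in WT mice (SD, n = 3, log2 1.71, edgeR adjusted p = 0.194). Cd5l (148 against 45.4 CPM) and Vsig4 (29.96 against 13.97 CPM) also had higher means than in WT mice. The mean of Timd4 was not higher (2.837 against 3.453 CPM). At 34-weeks the sums were 140 to 287 CPM in WT, 47.9 to 208 in Lipa-/- and 127 to 384 in treated mice, and the part of these cells in the subunit values was not tested. Clec4f, a defining marker of these cells, had 33 reads in Lipa-/- mouse 9 at 12-weeks and 6 reads in Lipa-/- mouse 6 at 34-weeks, against 449 to 1195 reads in the other Lipa-/- mice, and Timd4 had 0 reads in both. Without these mice all 5 subunits were still called, with log2 fold changes over WT of 3.36 to 5.12 at 12-weeks and 2.97 to 4.24 at 34-weeks.

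Neutrophil markers were higher in Lipa-/- mice, and single mice stood out in them. Of 10, 10 were called higher in Lipa-/- mice, relative to WT, at 12-weeks (20.2% of all genes) and 8 at 34-weeks (20.5%), against 1 in treated mice at 12-weeks (13.6%) and, by edgeR, 0 at 34-weeks, where 9 had an unadjusted p under 0.05, and Ly6g and Camp had no read in any WT mouse. Their summed level was 2.63 to 3.16 CPM in WT and 196, 136 and 1758 CPM in Lipa-/- mice at 12-weeks, and 1.95 to 7.61 and 117 to 308 CPM at 34-weeks. Treated mice were at 68.3, 53.6 and 8.05 CPM at 12-weeks and at 4.72, 2.84 and 863 CPM at 34-weeks, the last in mouse 12, which also had the highest level of each of the 5 subunits in its group. Lipa-/- mouse 9 had the highest Cyba, Ncf1, Ncf4 and Rac2 of its group and the lowest Cybb. The part of neutrophils in these values was not tested. Markers of T cells were called higher in 3 of 5 cases in Lipa-/- mice at each time point (20.2% and 20.5% of all genes). In treated mice they were in 3 of 5 cases at 12-weeks (13.6%) and 1 of 5 at 34-weeks (0.22% in either direction). Of 4 B cell markers, 1 was called higher in Lipa-/- mice at 12-weeks (20.2% of all genes) and 1 lower at 34-weeks (15.7%), and 2 were called higher in treated mice at 12-weeks (13.6%). Of 5 hepatocyte markers, 3 were called lower in Lipa-/- mice at 12-weeks (9.06% of all genes) and 4 at 34-weeks (15.7%), with 0 called by edgeR in treated against WT mice at either, of which Apoa1 alone had an unadjusted p under 0.05 (0.0357, at 12-weeks).

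For each subunit the 3 genes closest to it in pattern over the 18 mice were named. Likeness was taken as the root mean square difference in centred log2 CPM, over 12593 genes, each averaging 1 CPM or more, and it is a description that follows the large difference shared by all these genes. For Cybb the closest genes were Nckap1l, a leukocyte actin regulator (0.22), Irak3 (0.25) and the integrin chain Itgb2 (0.31), beside a median of 2.05 over all genes compared. Cyba was closest to the signalling adaptor Tyrobp (0.16), Cd53 (0.30) and Slfn2 (0.36), and Ncf1 to Sash3 (0.26), Otulinl (0.31) and Rgs19 (0.32). Ncf4 was closest to Fcer1g, a signalling chain of Fc receptors (0.33), Hk3 (0.33) and Uap1l1 (0.34). Rac2 had less close neighbours, Il2rg (0.37), Nfam1 (0.40) and Ucp2 (0.42). The median over all genes compared was 2.27 for Cyba, 1.65 for Ncf1, 2.06 for Ncf4 and 1.81 for Rac2. Among the subunits themselves the closest pair was Cybb and Ncf4 (0.54) and the farthest Cyba and Rac2 (1.62).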

How the data were processed

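Libraries were assigned to groups by their labels. Paired-end reads were quantified by the authors on GRCm39 transcripts in Salmon and collapsed to genes by tximport, which gave the estimated counts. The TPM values and effective lengths were deposited from the same step. A deposited table with the log2 fold changes and p-values of the authors' own DESeq2 comparisons was not used. No batch beyond the study code was given.

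Counts were rounded and fitted with edgeR 4.0.16 in R 4.3.3 (TMM factors, genes with more than 100 reads summed, 6 group means, quasi-likelihood test, Benjamini-Hochberg adjustment over 14533 genes, 11 comparisons). The 100 reads, the fold threshold and the adjusted p of 0.05 follow the study's methods. CPM values use TMM factors. A count of 3 reads corresponds to 0.0946 to 0.291 CPM. The edgeR p-values rest on the spread between mice within groups of 3, estimated over all 18 mice and not only over the groups compared. The 6 ratio tests were exact permutation tests within time points. Alternatives used DESeq2 1.42.0, limma 3.58.1 on log2(TPM + 1), other scalings, filters and thresholds, fits restricted to the groups at hand, a block for mouse number, and each mouse left out in turn. A fit without the trend with gene length and GC content, for which 98.4% of genes had both values, and ratios without length were added after seeing the data. The scripts were tested on simulated data, and the pass criterion of that test was revised after its first result was seen.

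The members, lists and tests were chosen with earlier results of these data known. Named were the 5 subunits, Lipa and human LIPA, up to 4 called genes per list and comparison by absolute log2 fold change (others named, such as Rac1, Cybc1, Irf1 and single markers, were chosen after their values were seen), and the 3 genes most like each subunit. Positions come from GENCODE vM39 on GRCm39, the build the methods name. An item of the lists is not reported here and was left out of the list counts and of the likeness.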

Additional observations from a re-analysis of the deposited data

Results flagged for a closer look

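Among the subunits, partners, other oxidases and transcription factors, the difference of treated from WT mice changed between 12- and 34-weeks for 4 genes. Each was called by the interaction test in edgeR, where 18.4% of all genes tested were called. By list the test called 1 of 5 subunits, 1 of 15 partners higher and 1 lower, 0 of 3 other oxidases tested and 1 of 4 transcription factors. These counts do not stand out from the share over all genes. In the marker lists this test called 2 of 4 leukocyte and 2 of 7 macrophage markers lower. It also called 1 of 5 T cell markers higher, 1 of 4 B cell markers lower and 0 markers of Kupffer cells, neutrophils and hepatocytes. Cyba changed by -2.85 on the log2 scale (adjusted p = 0.0255), since it was 10.5-fold above WT at 12-weeks and 1.46-fold above at 34-weeks. Arhgdia changed by 2.04 (adjusted p = 0.026), from below WT at 12-weeks to a log2 value of 0.35 at 34-weeks. Prkcb changed by -1.72 (adjusted p = 0.0428), and Irf1 by -1.19 (adjusted p = 0.0337). The treated mice at 12-weeks, which enter all 4 values, had the lowest TMM factors and the trend with gene length given above, and without that trend the values were -2.52 for Cyba, 1.60 for Arhgdia and -1.36 for Irf1, while Prkcb was no longer called (-1.11, edgeR adjusted p = 0.251).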

How the results depend on the processing

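Of 1005 alternative values for the 55 log2 fold changes of the subunits, 940 kept their direction and side of the thresholds, 25 lost a call, 7 gained one and 33 changed sign, none of the last being called in the fit reported. All counts of subunits in Lipa-/- against WT and in treated against Lipa-/- mice stayed at 5 under every alternative run. In treated against WT mice at 12-weeks the count of 4 became 2 with total counts, with limma on TPM and at an adjusted p of 0.01, and ranged from 2 (without WT mouse 3) to 4 with each mouse left out in turn. At 34-weeks the count of 0 became 1 in DESeq2. Between the time points in treated mice the count of 2 became 3 with limma on TPM, 1 with only the compared groups fitted, 1 at an adjusted p of 0.01, 1 without the length and GC trend, and 1 to 2 with mice left out. For the change of the treated-WT difference the count of 1 became 2 in DESeq2 and in limma, 0 with only the compared groups and at an adjusted p of 0.01, and 0 to 2 with mice left out. The ratio of Cybb to Cyba in Lipa-/- minus WT mice became -1.05 and that of Rac2 to Rac1 in treated minus WT mice 0.98 with 1 TPM added, and the latter ranged from 0.47 to 1.34 with mice left out. The causes were not tested.

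Values that changed sign were as follows. In treated against WT mice at 12-weeks Rac2 became -0.02 with length offsets, -0.14 with total counts and -0.32 in limma, with a range of -0.24 to 0.57 with mice left out. At 34-weeks Cyba ranged from -0.16 to 1.05. Between the time points in Lipa-/- mice Cybb became 0.08 with upper-quartile scaling, 0.28 with total counts, 0.02 in DESeq2, 0.38 in limma and 0.04 with only the compared groups (range -0.28 to 0.15 with mice left out), Ncf1 became 0.05 with total counts and 0.30 in limma (range -0.56 to 0.33), Ncf4 became 0.16 in limma, and Rac2 became 0.09 with length offsets, 0.16 with total counts, 0.11 in DESeq2 and 0.54 in limma. Between the time points in treated mice Ncf4 became 0.50 with total counts, 0.09 in limma and 0.09 without the length and GC trend (range -1.23 to 0.25), and Ncf1 became -0.36 without that trend (range -0.76 to 0.53). The change of the treated-WT difference became 0.28 for Cybb and 0.21 for Ncf1 in limma.

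With the mouse number as a replicate block, 0 subunits were called between the time points in treated mice. Mice of the same number at both time points are separate animals, and their deviations correlated at -0.253 to 0.46, so the numbers do not pair them. Total counts in place of TMM factors moved the median log2 value over all genes from 0.06 to -0.33 in treated against WT and from -0.19 to -1.05 in treated against Lipa-/- mice at 12-weeks, from 0.02 to 0.49 and -0.03 to 0.60 in Lipa-/- against WT mice at 12- and 34-weeks, from 0.03 to -0.51 in treated against Lipa-/- mice at 34-weeks and from 0.08 to 0.71 between the time points in treated mice. Genes called higher then made up 24.4% in place of 53.1%, 8.92% in place of 39%, 87.2% in place of 69.1%, 81.8% in place of 56.6%, 18.5% in place of 40.8% and 87.8% in place of 54.7% of those called, in the same order. With total counts all 5 subunits were still called lower in treated than in Lipa-/- mice at 12-weeks, while Rac2 against WT became -0.14. Setting the subunits against these medians cannot test the scaling, since a change of scaling moves both together. The calls for the change of the treated-WT difference rest on single mice, with 0 subunits called without WT mouse 1 or 3 or treated mouse 10 at 12-weeks, or without WT mouse 1 or treated mouse 9 at 34-weeks, and 1 to 3454 of all genes called with mice left out. The Cyba value for this change ranged from -3.48 to -2.27 in these fits. Ncf4 had 12 to 31 reads per mouse in WT mice at 12-weeks, the fewest of the subunits there, and how small a difference this depth could show was not tested.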
